A study of Drosophila melanogaster with 9 samples.

Results

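Gamma-aminobutyric acid (GABA) is the main inhibitory transmitter of the fly brain, and the 8 genes described here make it, load it into vesicles and receive it. They were chosen by symbol: Gad1 and VGAT for synthesis and loading, Rdl, Lcch3 and Grd for ionotropic receptor subunits, and GABA-B-R1, GABA-B-R2 and GABA-B-R3 for metabotropic receptors. They are 8 of the 15413 entries of the count table after its transcripts were summed per gene, and all 25 of their annotated RefSeq transcripts were in the table. All 8 passed the filter on low counts.

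The libraries were made from RNA of adult Drosophila melanogaster, 3 for each of 3 genotypes, to compare flies that overexpress Dube3a, the fly UBE3A ubiquitin ligase, in glia or in neurons. The control (Dube3a Alone, coded w_Das45) carried the UAS-Dube3a transgene, called Das45, and no driver. The glial line (Repo>Dube3a) carried the same transgene with repo-GAL4, which switches it on in glia. The neuronal line (elav>Dube3a, coded C155_Das45 after the elav-GAL4 allele) carried it with a driver that switches it on in neurons. All 9 libraries thus carry the transgene, and none carries a driver alone. Flies were kept at 25 degrees and taken 3 to 5 days after eclosion. Neither sex nor the number of crosses behind the replicates is given, so p-values refer to the spread between these libraries, which may be technical. The sample labels name dissected brain, whereas the design text describes pools of 15 to 25 heads.

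Total counts ran from 35550949 to 60322417 per library, and each member held at least 298 counts in every library. Levels are CPM, counts scaled to 1e+06 after TMM (trimmed mean of M values) correction, and n was 3 libraries per group throughout. Ube3a averaged 34.6 ± 4.58 CPM (SD), 209 ± 17.5 CPM and 70.4 ± 7.95 CPM in control, glial and neuronal libraries. Against the control it was called in the glial line (edgeR adjusted p = 8.4e-05) and in the neuronal line (0.014). The neuronal call was lost in 7 of 18 alternatives, among them without control 1 or 2 or neuronal 1 or 3 (0.05 to 0.088). In control, glial and neuronal libraries elav averaged 59.1 ± 3.46, 65.4 ± 5.88 and 82.5 ± 3.38 CPM and repo 50.4 ± 3.9, 37.6 ± 7.2 and 48.3 ± 13.6 CPM. Neither was called by edgeR (adjusted p of 0.09 or more), whereas DESeq2 called elav higher in the neuronal line against the control. None of 12 neuronal or 12 glial markers was at 0 in any group, and all 9 eye markers were present, summing to 46900 to 67970 CPM per library. Gut markers summed to between 2147 and 53430 CPM, muscle markers to between 7281 and 13030 and fat body markers to between 40130 and 155700. Most of the fat body sum came from the yolk protein genes Yp1 (8070 to 33700 CPM), Yp2 (11500 to 48800) and Yp3 (18700 to 76600). The part of sex, which is not given, in this range was not tested. In the glial line against the control 7 of 8 fat body markers were above 0 and 1 passed, Lsp2, at 22.5, 10.6 and 3.78 CPM in the control and 161, 206 and 577 CPM in the glial libraries (edgeR adjusted p = 0.04, lost without any 1 control or glial library or neuronal 3 and in 1 other setting, at 0.053 to 0.11). With the gut marker level as a covariate, Gad1 gave a log2 fold change of -0.43 in the glial line against the control (edgeR adjusted p = 0.157). Against the neuronal line it gave -0.55 (0.0705). The part of the other tissues in the results was not tested. In bulk RNA, fewer cells of a type and less RNA per cell cannot be told apart.

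Glutamate decarboxylase, encoded by Gad1, makes GABA from glutamate in the cytoplasm of GABAergic neurons. VGAT is the transporter that loads GABA into synaptic vesicles. Released GABA opens ionotropic receptors of the Cys-loop family, pentamers of which Rdl is the best known fly subunit, a GABA-gated chloride channel named after resistance to the insecticide dieldrin. Slow inhibition passes through G-protein-coupled GABA-B receptors, in which GABA-B-R1 binds GABA and pairs with GABA-B-R2 to signal. Astrocyte-like glia take GABA up again through the transporter Gat and break it down.

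None of the 8 genes passed the threshold in any of the 3 comparisons, each tested with edgeR's quasi-likelihood test at a Benjamini-Hochberg adjusted p under 0.05 over 11430 genes. Gad1 was the member with the smallest p against the glial line: its libraries averaged 0.729 of the control level and 0.685 of the neuronal level, and all 3 glial libraries lay below the other 6. In the glial line 7 of 8 members had a log2 fold change below 0 against the control (49.3% of all genes did), and Grd was the exception. In the neuronal line all 8 were above 0 (50.5% of all genes were). Of the 12 neuronal markers, 10 were below 0 in the glial line and 11 were above 0 in the neuronal line. These lines share their control libraries.

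**Figure D1:**
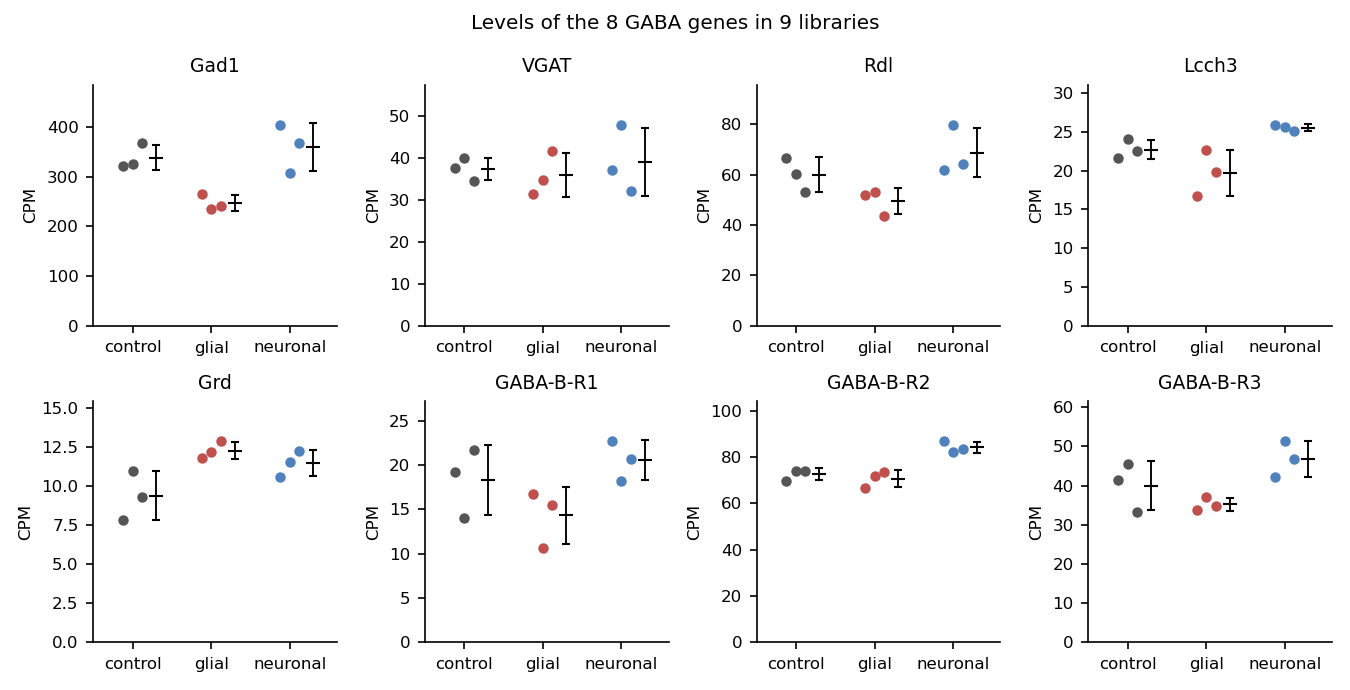
Level of each of the 8 genes in CPM (vertical axes, from 0) in each of the 3 control, 3 glial and 3 neuronal libraries (points, replicates 1 to 3 from left to right), with the group mean and SD as the bar beside them. Gad1 lies between 234 and 265 CPM in the glial libraries and between 308 and 404 CPM in the other 6, and GABA-B-R2 is 82.1 CPM or more in the neuronal libraries and 74.1 CPM or less in the others.

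Gad1 (FBgn0004516, chromosome arm 3L) was the most abundant member. It stood at 322, 325 and 367 CPM in control libraries 1, 2 and 3, at 265, 234 and 241 CPM in the glial libraries and at 404, 308 and 367 CPM in the neuronal libraries. The glial libraries were thus the 3 lowest, while control and neuronal libraries overlapped. Against the control the glial line gave a log2 fold change of -0.46 ± 0.14 (standard error, 95% interval -0.76 to -0.15), with an unadjusted p of 0.0086 and an adjusted p of 0.11 by edgeR. Against the neuronal line it gave -0.55 ± 0.14 (interval -0.85 to -0.24, edgeR adjusted p = 0.063). DESeq2 placed both below the threshold, with adjusted p of 0.016 and 0.0026, and limma-voom placed neither there (0.0938 and 0.0602). The neuronal line differed from the control by 0.09 ± 0.14 (interval -0.22 to 0.40, edgeR adjusted p = 0.83).

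VGAT (FBgn0033911, arm 2R) showed no such order. It stood at 37.7, 39.9 and 34.6 CPM in the control, at 31.4, 34.8 and 41.7 CPM in the glial line and at 37.1, 47.9 and 32.1 CPM in the neuronal line, so that every pair of groups overlapped. Its log2 fold change was -0.06 ± 0.17 in the glial line (interval -0.43 to 0.32, edgeR adjusted p = 0.89) and 0.06 ± 0.17 in the neuronal line (interval -0.31 to 0.44, adjusted p = 0.91). The ratio of Gad1 to VGAT counts within a library, which no scaling between libraries affects, averaged 9.10 ± 1.32, 6.98 ± 1.34 and 9.58 ± 2.74 for control, glial and neuronal libraries. Glial and control ratios overlapped (exact permutation p = 0.2, two-sided, where 0.1 is the smallest that 3 against 3 libraries can give).

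Rdl (FBgn0004244, arm 3L) encodes the subunit of the main GABA-gated chloride channel. It stood at 66.8, 60.2 and 53.0 CPM in the control, at 52.0, 53.0 and 43.6 CPM in the glial line and at 62.0, 79.8 and 64.2 CPM in the neuronal line. The glial libraries again were the lowest 3, although glial library 2 and control library 3 were nearly level. The log2 fold change was -0.28 ± 0.14 against the control (interval -0.60 to 0.05, edgeR adjusted p = 0.32) and -0.47 ± 0.14 against the neuronal line (interval -0.79 to -0.15, adjusted p = 0.12). Neuronal and control libraries overlapped (0.20 ± 0.14, adjusted p = 0.61).

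Lcch3 (FBgn0010240, chromosome X) encodes a subunit that forms GABA-gated cation channels with Grd when both are expressed in frog oocytes. It stood at 21.6, 24.0 and 22.5 CPM in the control, at 16.7, 22.6 and 19.8 CPM in the glial line and at 25.9, 25.6 and 25.1 CPM in the neuronal line. The 3 neuronal libraries lay close together above the other 6. The neuronal line gave 0.17 ± 0.13 against the control (edgeR adjusted p = 0.63) and the glial line -0.37 ± 0.13 against the neuronal line (interval -0.67 to -0.08, adjusted p = 0.17). Exons of Lcch3 share 456 bases with Ranbp16 on the opposite strand, a gene at 28.9 ± 5.34, 27.1 ± 6.84 and 29.4 ± 4.61 CPM in control, glial and neuronal libraries. The sources used here do not say whether counting used strand, so reads there cannot be told apart.

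Grd (FBgn0001134, arm 3L) was the member with the fewest counts and went the other way. It stood at 7.88, 11 and 9.35 CPM in the control, at 11.8, 12.2 and 12.9 CPM in the glial line and at 10.6, 11.6 and 12.3 CPM in the neuronal line. All 3 glial libraries lay above all 3 control libraries, and the neuronal libraries overlapped both. The glial line gave 0.38 ± 0.15 against the control (interval 0.04 to 0.73, unadjusted p = 0.032, edgeR adjusted p = 0.2) and the neuronal line 0.29 ± 0.15 (adjusted p = 0.47). Grd shares 1118 exon bases with CG5577 on the opposite strand. CG5577 stood at 36.6, 43.1 and 41.0 CPM in the control, at 56.2, 42.9 and 45.3 CPM in the glial line and at 22.9, 28.0 and 36.6 CPM in the neuronal line. It held more counts than Grd in every library, its glial and control libraries overlapped, and its part in the Grd counts was not tested.

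Within libraries, the number of Grd counts per Rdl count was 0.118, 0.183 and 0.176 for the control libraries, 0.227, 0.231 and 0.295 for the glial ones and 0.171, 0.146 and 0.192 for the neuronal ones. The glial ratios lay above all others, with an exact permutation p of 0.1 in both comparisons, the smallest that 3 against 3 libraries allow. The Lcch3 to Rdl ratio overlapped between all groups, at 0.382 ± 0.0527, 0.401 ± 0.0711 and 0.376 ± 0.0503. These were 2 of 6 such ratios computed, in 3 comparisons each, so no p could pass an adjustment.

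GABA-B-R1 (FBgn0260446, arm 2L) had the widest standard errors of the 8. It stood at 19.2, 14.0 and 21.7 CPM in the control, at 16.8, 10.7 and 15.5 CPM in the glial line and at 22.7, 18.2 and 20.7 CPM in the neuronal line. The glial libraries lay below the neuronal ones and overlapped the control, and replicate 2 was the lowest of each genotype. The glial line gave -0.35 ± 0.21 against the control (interval -0.83 to 0.13, edgeR adjusted p = 0.41) and -0.52 ± 0.21 against the neuronal line (interval -1.0 to -0.03, adjusted p = 0.24).

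GABA-B-R2 (FBgn0027575, arm 3R), the signalling partner of GABA-B-R1, was measured most precisely. It stood at 69.6, 74.1 and 73.9 CPM in the control, at 66.6, 72.0 and 73.4 CPM in the glial line and at 86.8, 82.1 and 83.4 CPM in the neuronal line. Control and glial libraries overlapped, and the neuronal libraries were above both. In the neuronal line the log2 fold change was 0.21 ± 0.09 (interval 0.01 to 0.42, unadjusted p = 0.045, edgeR adjusted p = 0.36). In the glial line it was -0.04 ± 0.09, and its interval of -0.25 to 0.17 limits a change in either direction to less than that estimated for Gad1. Counts of GABA-B-R1 per GABA-B-R2 count were 0.253 ± 0.0555, 0.204 ± 0.0523 and 0.244 ± 0.0205 in control, glial and neuronal libraries, with all groups overlapping.

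GABA-B-R3 (FBgn0031275, arm 2L) is a further receptor of this class in insects. It stood at 41.3, 45.4 and 33.3 CPM in the control, at 33.8, 37.0 and 34.8 CPM in the glial line and at 42.3, 51.3 and 46.7 CPM in the neuronal line. The control spanned the glial libraries, and the glial libraries lay below the neuronal ones. The log2 fold change was -0.18 ± 0.13 for the glial line against the control (edgeR adjusted p = 0.5), 0.23 ± 0.13 for the neuronal line against the control (adjusted p = 0.52) and -0.41 ± 0.13 between the lines (interval -0.71 to -0.11, adjusted p = 0.14).

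Read over the 8 genes, the comparisons had these counts. In the glial line against the control, edgeR passed 0 of 8 members against 4.42% of all genes, 2 had an unadjusted p under 0.05 (19.9% of all genes), limma-voom passed 0 (3.95%) and DESeq2 passed 1 (9.75%), Gad1. The median log2 fold change was -0.20 over the members and 0.007 over all genes. Groups did not overlap for 3 members, which held for 25.0% of all genes: Gad1 and Rdl were lower and Grd was higher.

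In the neuronal line against the control, edgeR passed 0 of 8 (0.709% of all genes), 1 had an unadjusted p under 0.05 (13.3%), and limma-voom (0.534%) and DESeq2 (4.12%) passed 0. The median was 0.18 over the members and 0.003 over all genes. Lcch3 and GABA-B-R2 were higher without overlap, which held for 10.7% of all genes. It also held for 9 of the 12 neuronal markers.

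Between the glial and neuronal lines, edgeR passed 0 of 8 (3.69% of all genes), although 6 had an unadjusted p under 0.05 (18.2%) and the same 6, all but VGAT and Grd, were lower in the glial line without overlap (11.5%). Limma-voom passed 0 (3.81%) and DESeq2 passed 1 (8.87%), Gad1. The log2 fold change was below 0 for 7 of 8 (48.5% of all genes), with a median of -0.39 over the members and 0.012 over all genes. Neuronal markers went the same way. Of these 12, 11 were below 0, 10 had an unadjusted p under 0.05 by edgeR and 10 were lower without overlap.

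**Figure D2:**
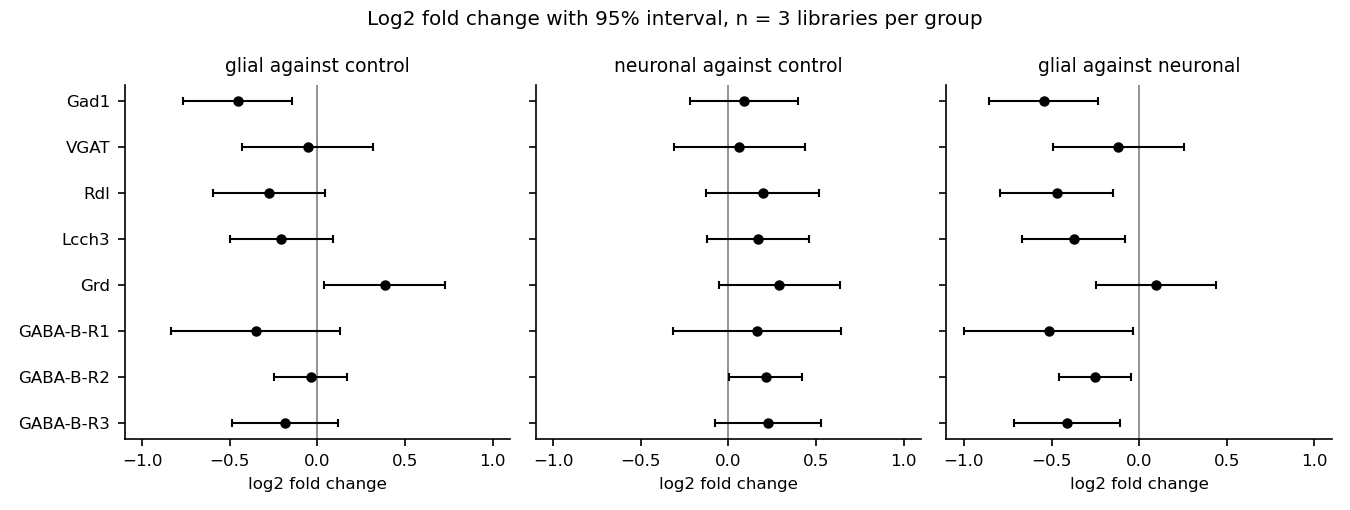
Log2 fold change of each member (points) with its 95% interval (bars) from the edgeR fit, in 3 panels for the glial line against the control, the neuronal line against the control and the glial line against the neuronal line. Gad1 stands at -0.46, 0.09 and -0.55 in the 3 panels, and the intervals of 6 genes in the last panel end below 0 before adjustment for the number of genes.

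Neuronal markers were not level across the genotypes. The 12 markers, among them elav, nSyb, Syt1 and brp, summed to 2727 to 2915 CPM in the control, 2296 to 3009 in the glial line and 3378 to 3692 in the neuronal line. Against the control their median log2 fold change was -0.11 for the glial and 0.32 for the neuronal line, and it was -0.50 between the lines. Of the 12, 0 rose and 1 fell in the glial line by edgeR, which passed 4.42% of all genes there. In the neuronal line 0 passed with edgeR (0.709% of all genes), 2 by DESeq2 and 0 by limma-voom. There 5 had an unadjusted p under 0.05 by edgeR (13.3% of all genes). Between the lines 0 rose and 3 fell (3.69% of all genes passed). The one in the glial line, Syx1A, lost its call in 14 of 18 alternatives, among them leaving out any 1 library but glial 1 (0.061 to 0.19). The 3 between the lines, brp, fne and Syx1A, each lost it without any 1 neuronal library, brp also without control 1, glial 2 or glial 3 and fne without glial 3.

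The members were therefore also measured relative to these markers, by scaling each library to their geometric mean. Between the lines Gad1 then gave -0.07 ± 0.18 (edgeR adjusted p = 0.76), Rdl -0.01 ± 0.14 and GABA-B-R1 -0.03 ± 0.26. VGAT gave 0.377, GABA-B-R2 0.227, Lcch3 0.097 and GABA-B-R3 0.065. The median of all genes moved to 0.49 under this scaling, and all members but Grd stayed below it. Grd, at 0.57 ± 0.19, then had an adjusted p of 0.0493, with 26.0% of all genes past the threshold. Against the control 0 of 8 members passed under this scaling in the glial line (3.74% of all genes) and 0 in the neuronal line (1.23%). Gad1 then gave, for glial libraries against the control, -0.29 ± 0.18 (adjusted p = 0.4), where the median of all genes was 0.17. In the neuronal line all 8 members turned negative, from -0.02 for Grd to -0.25 for VGAT, where the median of all genes was -0.31.

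**Figure D3:**
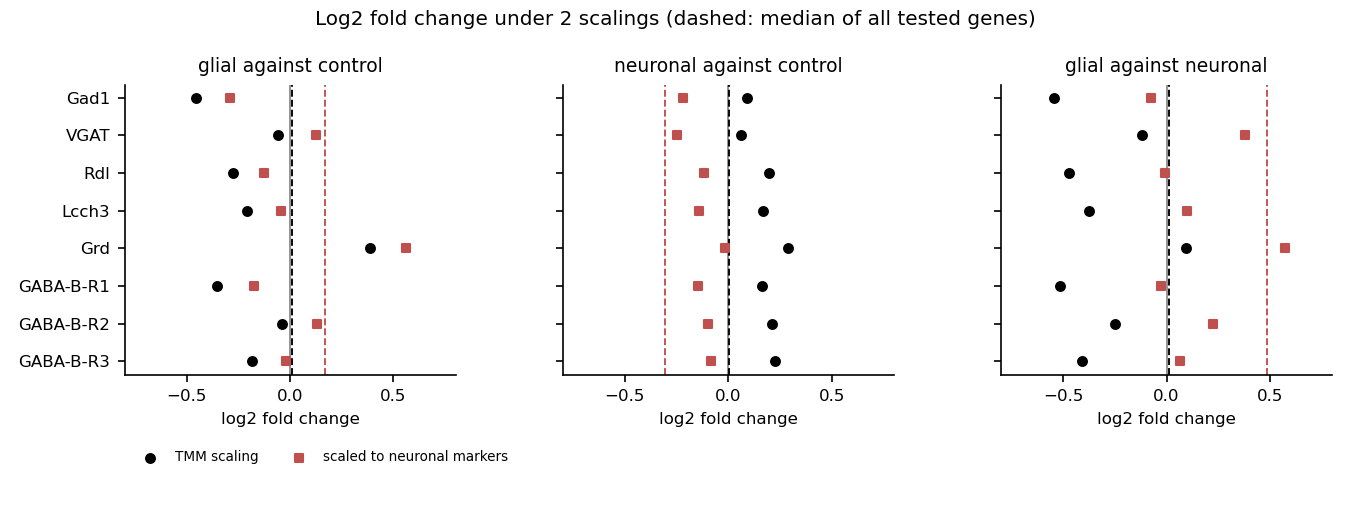
Log2 fold change of each member under TMM scaling (black circles) and with libraries scaled to the 12 neuronal markers (red squares), in the 3 comparisons, with the median of all tested genes as a dashed line of the same colour. Between the glial and neuronal lines Gad1 moves from -0.55 to -0.07 while the median of all genes moves from 0.012 to 0.49.

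Per kilobase of merged exon, a rough scale for comparing genes, Gad1 was the highest in the control at 91.8 ± 6.84 CPM per kb, and GABA-B-R2 followed at 18.2 ± 0.637. VGAT (13.8 ± 0.984) and Lcch3 (11.9 ± 0.633) came next, and over the 9 libraries their ranges met, at 11.6 to 17.7 and 8.76 to 13.6 CPM per kb, with VGAT the higher in 8 of 9. Rdl (6.67 ± 0.767) and GABA-B-R3 (5.69 ± 0.880) were close, with Rdl the higher in 8 of 9 libraries. GABA-B-R1 (3.25 ± 0.691) and Grd (2.31 ± 0.388) were the lowest, with GABA-B-R1 the higher in 2 of 3 control, 1 of 3 glial and 3 of 3 neuronal libraries, so that their order was not settled. If reads shared by isoforms were counted for each, genes with several transcripts stand too high on this scale. Merged exons join those of all isoforms of a gene, which can instead place such genes too low. The order of genes with 1 and with several transcripts is therefore not settled. The summed CPM of the 8 genes was 585.9 to 615.4 in the control, 476.1 to 494.1 in the glial line and 624.5 to 691.8 in the neuronal line.

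The members with several annotated transcripts were Gad1, Rdl, GABA-B-R1, GABA-B-R2 and GABA-B-R3. Isoforms of a gene share most of their reads, so the shares describe how the authors' counting assigned them. The share of each Gad1 transcript kept within narrow limits, from 20.18% to 22.27% for NM_168055 and from 28.72% to 32.4% for NM_168056 over the 9 libraries. Taken alone, the 4 Gad1 transcripts gave log2 fold changes of -0.54 to -0.44 in the glial line against the control, with edgeR adjusted p of 0.0761 to 0.164 over all transcripts tested.

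Rdl is known for alternative exons in its ligand-binding region. Of its 6 transcripts, NM_079267 and NM_168322 were the least counted, at 9.45% and 10.46% of Rdl counts in the control, 9.58% and 10.5% in the glial line and 8.56% and 9.05% in the neuronal line. The 4 others each held between 17.5% and 23.79% in every library. GABA-B-R3 had 1 minor transcript, NM_001169375, with 4.63% to 8.03% of its counts, and the 2 transcripts of GABA-B-R1 held 46.56% to 53.44% each. None of the 25 member transcripts had an adjusted p under 0.05 in any comparison.

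**Figure D4:**
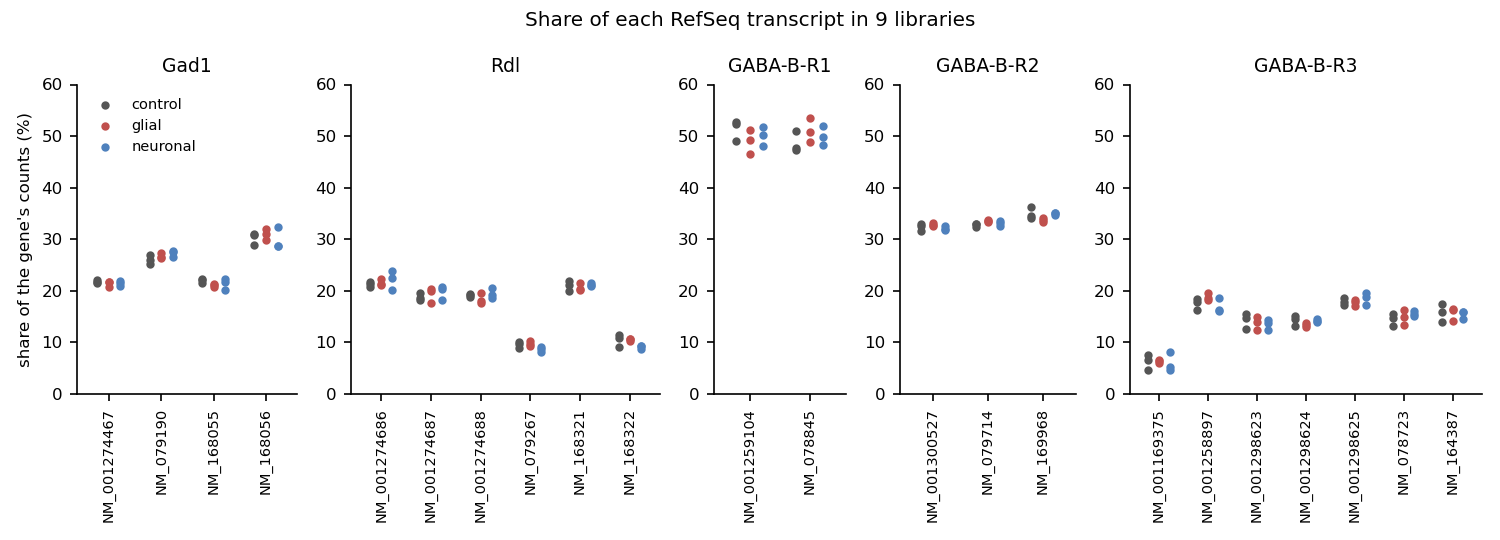
Share of the gene's counts (percent, vertical axis) held by each RefSeq transcript (horizontal axis) of the 5 members with several transcripts, with a point for each of the 9 libraries coloured by genotype. NM_079267 and NM_168322 of Rdl and NM_001169375 of GABA-B-R3 lie lowest.

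For the gene lists that follow, the shares over all genes are the reference. EdgeR called 4.42%, 0.709% and 3.69% of all genes in glial against control, neuronal against control and between the lines. An unadjusted p under 0.05 was held by 19.9%, 13.3% and 18.2% of all genes. Genes that clear and break down GABA were compared next. In the glial line 1 of 3 fell by edgeR and limma-voom and 2 did not pass (median -0.73), while DESeq2 called 2, Gabat and Ssadh, and in the neuronal line 0 of 3 passed by edgeR (0 at an unadjusted p under 0.05). Gabat, the mitochondrial transaminase that converts GABA to succinic semialdehyde, stood at 471, 392 and 435 CPM in the control, at 121, 205 and 161 CPM in the glial line and at 307, 508 and 279 CPM in the neuronal line. All glial libraries lay below all others. Gabat fell to 0.375 of the control level (log2 fold change -1.41 ± 0.26, edgeR adjusted p = 0.02) and to 0.446 of the neuronal level (-1.17 ± 0.26, adjusted p = 0.045). Leaving out control 1 or 3, or glial 1 or 3, ended the call against the control (adjusted p = 0.052 to 0.079). The call between the lines was lost without any 1 of the 9 libraries but glial 2, and in 3 other settings (0.06 to 0.15).

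Ssadh, the dehydrogenase that oxidises succinic semialdehyde, stood at 105, 117 and 100 CPM in the control, at 52.2, 66.0 and 76.1 CPM in the glial line and at 94.9, 142 and 92.8 CPM in the neuronal line. The glial libraries were the lowest 3, and the log2 fold change of -0.73 ± 0.20 against the control did not pass (unadjusted p = 0.0047, edgeR adjusted p = 0.076, limma-voom 0.071), whereas DESeq2 called it (adjusted p = 0.0092), as it did between the lines (0.0067). The transporter Gat averaged 35.2 ± 7.09, 26.4 ± 2.42 and 35.7 ± 5.47 CPM in control, glial and neuronal libraries (-0.42 ± 0.17 in the glial line, adjusted p = 0.22).

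Of the glial markers, 2 of 12 rose and 4 fell in the glial line by edgeR (4.42% of all genes passed). Of these calls moody (higher) was lost without any 1 library but glial 1 and neuronal 2 and in 3 other settings (0.051 to 0.14). That of wrapper (lower) was lost without control 1 or 2, with the 6 compared libraries only and scaled to neuronal markers (0.059 to 0.14). That of nrv2 (lower) was lost without control 1, with a replicate block and scaled to neuronal markers (0.053 to 0.086). The markers Gli, alrm and zyd kept theirs in 18 alternatives. The astrocyte-like glia gene alrm was among those that fell (324 ± 60.1 to 101 ± 25.8 CPM), and the 12 markers, of which Gat is one, summed to 3048 to 3660 CPM in the control and 1939 to 2860 in the glial line. Their part in the Gabat value was not tested.

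**Figure D5:**
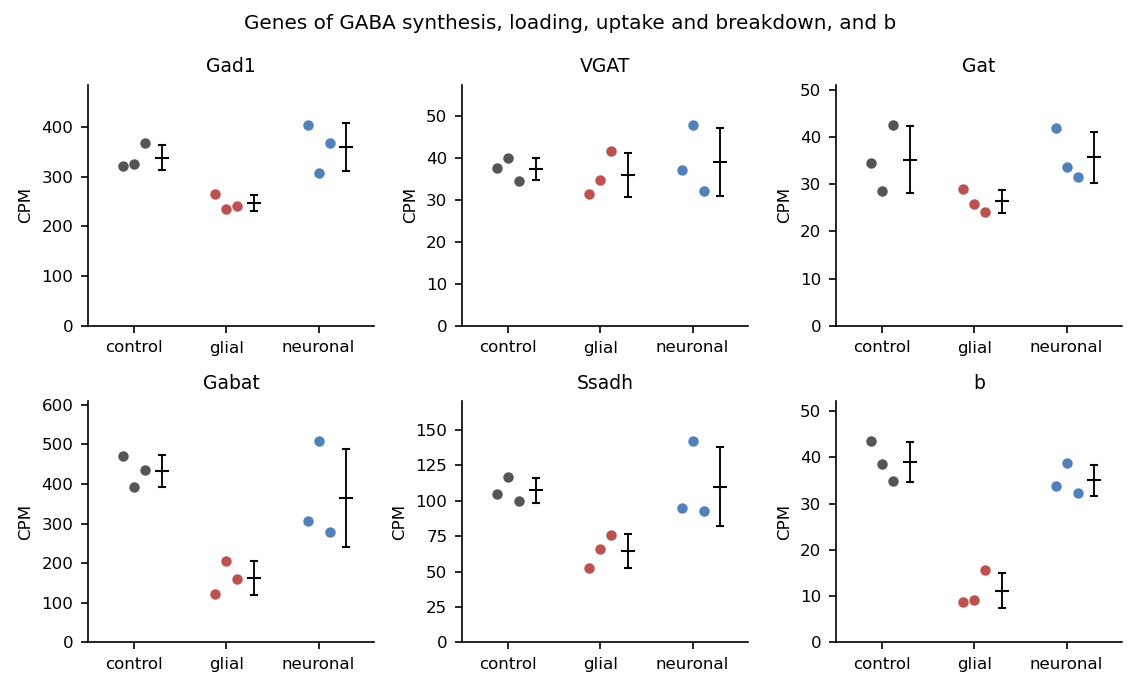
Level in CPM (vertical axes, from 0) of Gad1, VGAT, Gat, Gabat, Ssadh and b in each library (points) with the group mean and SD (bar), for control, glial and neuronal libraries. The glial libraries of Gabat lie between 121 and 205 CPM and those of b between 8.78 and 15.6 CPM, below all 6 other libraries, whereas VGAT overlaps in all groups.

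In a list of 7 genes, b and genes of glutamate and glutamine supply, 1 fell (b) and 0 rose in the glial line (median -0.10). In the neuronal line 0 passed by edgeR (2 at an unadjusted p under 0.05), and 1 rose and 1 fell (again b) between the lines. The gene b (black) encodes the aspartate decarboxylase that makes beta-alanine. It stood at 43.5, 38.6 and 34.8 CPM in the control, at 8.78, 9.16 and 15.6 CPM in the glial line and at 33.8, 38.9 and 32.4 CPM in the neuronal line. It fell to 0.286 of the control level (-1.81 ± 0.22, edgeR adjusted p = 0.003) and to 0.318 of the neuronal level (-1.65 ± 0.22, adjusted p = 0.0051), and none of 18 alternatives run on it ended either call. The cystine and glutamate exchanger gene gb was higher in the glial than in the neuronal line (25.9 ± 5.03 against 14.2 ± 2.29 CPM, 0.87 ± 0.18, adjusted p = 0.033), a call that ended without control 1 or 2, glial 2 or 3 or any 1 neuronal library and in 3 other settings (0.052 to 0.12).

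Of 7 genes listed for GABA-B signalling, G-protein subunits and inwardly rectifying potassium channels, 2 fell in the glial line by edgeR (median -0.34). In the neuronal line 0 passed by edgeR (1 at an unadjusted p under 0.05), and 2 fell between the lines. A link of these channels to the receptors was not tested. DESeq2 called 4 in the glial line against the control, with Galphao (adjusted p = 0.0074) and Ggamma1 (0.032) beside Irk2 and Irk3, and 3 between the lines. Irk3, an inwardly rectifying potassium channel gene, fell from 21.8 ± 2.62 to 7.69 ± 0.787 CPM (-1.50 ± 0.14, edgeR adjusted p = 0.001), and stood at 17.1 ± 1.14 CPM in the neuronal line. Irk2, of the same family, fell from 104 ± 7.81 to 72.8 ± 2.82 CPM (-0.51 ± 0.12, adjusted p = 0.042), a call lost without any 1 control or glial library, without neuronal 3 and in 6 other settings (0.056 to 0.23). Galphao, the Go alpha subunit, was lower in the glial than in the neuronal line (121 ± 5.55 against 177 ± 5.64 CPM, -0.55 ± 0.10, adjusted p = 0.017), and this call ended without glial 3 or any 1 neuronal library and in 4 other settings, scaling to neuronal markers among them (0.052 to 0.64).

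The driving force for chloride through GABA receptors depends on cotransporters. Of 6 genes of chloride cotransporters and channels 1 rose in the glial line (median 0.25), 0 passed in the neuronal line by edgeR (1 at an unadjusted p under 0.05), and 1 rose between the lines. Ncc69, the inward sodium-potassium-chloride cotransporter gene, rose from 117 ± 9.98 to 229 ± 23.8 CPM in the glial line (0.97 ± 0.12, edgeR adjusted p = 0.0029), with 146 ± 4.4 CPM in the neuronal line. No alternative ended that call, whereas the one between the lines (0.66 ± 0.12, adjusted p = 0.02) ended without glial 2 or any 1 neuronal library and in 3 other settings (0.054 to 0.2). The outward cotransporter gene kcc gave -0.15 (adjusted p = 0.48).

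Other Cys-loop chloride channels, other transmitter systems and accessory proteins gave few calls. Of 8 tested Cys-loop genes, 0 passed in the glial line by edgeR (3 at an unadjusted p under 0.05) and 0 in the neuronal line (1 unadjusted). Between the lines the glutamate-gated channel gene GluClalpha was lower in the glial line (71.7 ± 7.34 against 107 ± 1.72 CPM, -0.58 ± 0.11, edgeR adjusted p = 0.022), which ended without glial 2 or 3 or any 1 neuronal library and in 4 other settings (0.058 to 0.51). The listed CG6927 did not pass the filter on low counts.

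Of 6 genes of vesicle loading and other transmitters, 0 passed against the control in the glial line (1 at an unadjusted p under 0.05) or the neuronal line (2 unadjusted) by edgeR, and 2 differed between the lines. They were VGlut, the vesicular glutamate transporter gene (42.3 ± 1.63 against 62.7 ± 4.46 CPM, -0.57 ± 0.10, edgeR adjusted p = 0.021), and ChAT, which makes acetylcholine (51.7 ± 3.24 against 73.6 ± 5.42 CPM, -0.51 ± 0.10, adjusted p = 0.03). Both calls were lost with libraries scaled to neuronal markers (-0.09 and -0.02), and without any 1 neuronal library, glial 1 or glial 3. ChAT was also lost without glial 2, control 1 or control 2, and over all settings the lost calls had adjusted p of 0.054 to 0.62 for VGlut and 0.053 to 0.91 for ChAT. Of 7 accessory and clustering genes, among them the Rdl regulator wake and the neuroligins, 0 passed in any comparison by edgeR (4 at an unadjusted p under 0.05 between the lines, 0 in the others). Those with the highest CPM were the neurexin gene Nrx-1 (243 ± 1.9, 212 ± 15.1 and 264 ± 27 CPM in control, glial and neuronal libraries) and rogdi (113 ± 7.71, 90.8 ± 13.3 and 106 ± 12.9 CPM). Where edgeR passed 0 genes of a pathway list, limma-voom passed 0 too, and DESeq2 passed 1 in 3 cases: VGlut in the glial line and ChAT in the neuronal line against the control, and Nlg4 between the lines.

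The tested genes nearest to Gad1 over the 9 libraries, by the root mean square difference of log2 CPM after each gene's mean was removed, were CG4887 (0.079), dpr14 (0.090) and CG2217 (0.090), where Gad1 itself had an SD of 0.28. The nearest to Rdl, with an SD of 0.25, were sm (0.054), CG42450 (0.056) and the potassium channel gene eag (0.060). Of the members, GABA-B-R3 was the nearest to Rdl (0.120, place 52 among all tested genes), and GABA-B-R1 the nearest to Gad1 (0.187, place 372).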

How the data were processed

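The authors deposited raw read counts for 31838 RefSeq transcripts in 9 libraries sequenced on an Ion Torrent instrument. STAR and DESeq2 are named in the submitters' processing notes without role or version, and the sources used here do not give the counter, genome build, annotation release or use of strand, so no coordinates are printed. Of the transcripts, 31673 matched the RefSeq annotation of Release 6 plus ISO1 MT, and the others (0.297% to 0.685% of counts) were kept as entries of their own. Counts were summed per gene. For the pair of isoforms with the closest totals in each of 5 members, the counts differed over libraries by a chi-square of 1.28 to 13.24 on 8 degrees of freedom, and that of GABA-B-R2 (1.28) was lower than independent counts would mostly give. Whether reads shared by isoforms were divided or counted for each is not settled; single transcripts were an alternative. Exon lengths and overlaps come from the Ensembl BDGP6 annotation.

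Genes were fitted with edgeR 4.0.16 in R 4.3.3 (TMM, filterByExpr at its minimums of 10 counts and 15 in total, group as the only term, all 9 libraries), which was tested on simulated data. The simulated log2 changes were larger than any estimated for a member, so that test does not cover changes of their size. Standard errors are the log2 fold change divided by the square root of F, and intervals use the fit's degrees of freedom. DESeq2 1.42.0 and limma 3.58.1 were alternatives. The members, gene lists and rules were chosen with earlier results of these data known. All members were named, with list genes called in any comparison (or the 2 with the highest CPM where none was) and the 3 genes nearest to Gad1 and Rdl. Gat, Ssadh, kcc, the genes called by DESeq2 alone and the marker genes were named after their values were seen.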

Additional observations from a re-analysis of the deposited data

Results flagged for a closer look

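These genes of the pathway lists differed between the glial and neuronal lines by the direct test (edgeR, adjusted over 11430 genes). Several of them serve other transmitters or products, as described above. The test asks whether the lines differ. No library carries a driver alone, so effects of the driver and of the line background cannot be told apart. The 8 members themselves gave no such call. Gabat gave -1.17 (adjusted p = 0.045), b -1.65 (0.0051) and Irk3 -1.16 (0.0033). Galphao gave -0.55 (0.017), GluClalpha -0.58 (0.022), VGlut -0.57 (0.021) and ChAT -0.51 (0.03). Higher in the glial line were gb at 0.87 (0.033) and Ncc69 at 0.66 (0.02). None of 18 alternatives ended the calls of b and Irk3. The others were each lost in 7 to 12 alternatives, among them leaving out neuronal 1, neuronal 2 or neuronal 3.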

How the results depend on the processing

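No member passed in any of 3 comparisons under 17 of 19 alternatives. The exceptions were Gad1 with DESeq2 (-0.46 and -0.54 in the glial line against control and neuronal line) and Grd between the lines with libraries scaled to neuronal markers (0.575). That scaling turned VGAT (0.127) and GABA-B-R2 (0.132) in glial against control. In neuronal against control it turned Gad1 (-0.218), VGAT (-0.25), Rdl (-0.118), Lcch3 (-0.14), Grd (-0.0164), GABA-B-R1 (-0.148), GABA-B-R2 (-0.0956) and GABA-B-R3 (-0.0841). Between the lines it turned VGAT (0.377), Lcch3 (0.0971), GABA-B-R2 (0.227) and GABA-B-R3 (0.0647), and library totals turned Grd (-0.0649). By construction that scaling moves all genes alike, the median of all genes to 0.17, -0.306 and 0.485 in the 3 comparisons, so these turns say nothing particular to the members.

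Leaving out 1 library gave both signs for VGAT (-0.187 to 0.0333) and GABA-B-R2 (-0.0775 to 0.0047) in glial against control, for Gad1 (-0.0032 to 0.19), VGAT (-0.111 to 0.186) and GABA-B-R1 (-0.0116 to 0.304) in neuronal against control, and for VGAT (-0.244 to 0.0542) between the lines.

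Counts of called genes moved more. In glial against control (505, of which 290 higher and 215 lower) they were 274 with the 6 compared libraries only, 1113 with DESeq2, 281 with library totals (126 higher, the rest lower), 427 scaled to neuronal markers (329 higher, 98 lower), 946 over single transcripts and 181 to 447 with 1 library left out. In neuronal against control (81, of which 35 higher and 46 lower) they were 470 with DESeq2, 44 with library totals, 141 scaled to neuronal markers (17 higher, 124 lower), 151 over single transcripts and 16 to 62 with 1 library left out. Between the lines (422, of which 231 higher and 191 lower) they were 227 with the 6 compared libraries only, 1013 with DESeq2, 243 with library totals (95 higher, 148 lower), 2975 scaled to neuronal markers (2886 higher, 89 lower), 850 over single transcripts and 154 to 392 with 1 library left out. Library totals moved the median of all genes by -0.097, 0.059 and -0.147.

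Replicate numbers are shared by the groups, and the labels do not say whether same-numbered libraries were made together. Deviations from the group mean had correlations of -0.568 to 0.366 in same-numbered pairs and -0.613 to 0.386 in the others. Such overlapping ranges cannot settle whether a number stands for a shared batch. With a replicate block the counts of called genes were 281, 15 and 241, no member's call changed, and Gad1 had an adjusted p of 0.155 and 0.114 in the glial line. The block lowered the standard error of GABA-B-R1 from 0.213 to 0.143 in both glial comparisons. Its edgeR adjusted p was then 0.258 against the control and 0.125 against the neuronal line.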
